A study of Homo sapiens with 6 samples.

Results

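The genes described here are 8 genes that control the sterol regulatory element-binding proteins (SREBPs) and lipoprotein uptake: SREBF1, SREBF2, SCAP, INSIG1, INSIG2, MBTPS1, MYLIP and STARD4. They were taken by symbol from a table of 37902 genes, all 8 were in it, and all 8 passed the filter of a mean normalised count (reads divided by a size factor of the library) of at least 10 that left 14684 genes for testing. The table came from RNA-seq of ARPE-19, an established human retinal pigment epithelial (RPE) cell line, under regular maintenance at day 3. The wild type (WT) libraries came from the parental line. The POLDIP2 KO libraries came from a line that received SpCas9 and a guide RNA against the POLDIP2 coding sequence by lentivirus and was expanded after puromycin selection, and it was not described as a single clone. The WT cells were not described as having received the virus or puromycin, so the knockout and its delivery cannot be told apart. Each line had 3 libraries labelled as biological replicates, and the p values measure the spread between these libraries.

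SREBPs are transcription factors made as membrane proteins of the endoplasmic reticulum (ER), from SREBF1 (mainly genes of fatty acid synthesis) and SREBF2 (mainly genes of cholesterol synthesis and uptake). SCAP escorts them to the Golgi when membrane sterol is low, INSIG1 and INSIG2 hold the complex back when it is high, and the protease encoded by MBTPS1 makes the first of the cuts that free the active factor. INSIG1 is itself a well known SREBP target, STARD4 carries sterols between membranes and is another, and MYLIP is an E3 ubiquitin ligase, induced by liver X receptors, that sends lipoprotein receptors to the lysosome. The RPE takes up lipoproteins from the choroidal blood and digests the lipids of photoreceptor outer segments.

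The promoters of SREBF2, INSIG1 and STARD4 are printed because these were the 3 genes whose lines did not overlap. All 8 genes matched the RefSeq promoter table for GRCh38.p14, with 9 entries because INSIG2 has 2 starts. Each run is the 250 bases before the RefSeq start, 5' to 3' on the gene's strand. Capitals mark a sterol regulatory element (TCACNCCAC), an E-box (CACGTG) or an NF-Y box (CCAAT), each searched on both strands of the whole entry, which also holds the first 50 bases from the start (not printed).
SREBF2: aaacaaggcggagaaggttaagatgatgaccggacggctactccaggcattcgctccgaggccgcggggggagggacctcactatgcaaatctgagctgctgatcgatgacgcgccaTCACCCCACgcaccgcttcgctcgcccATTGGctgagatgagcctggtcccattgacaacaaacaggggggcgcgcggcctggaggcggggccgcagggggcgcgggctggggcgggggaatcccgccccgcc
INSIG1: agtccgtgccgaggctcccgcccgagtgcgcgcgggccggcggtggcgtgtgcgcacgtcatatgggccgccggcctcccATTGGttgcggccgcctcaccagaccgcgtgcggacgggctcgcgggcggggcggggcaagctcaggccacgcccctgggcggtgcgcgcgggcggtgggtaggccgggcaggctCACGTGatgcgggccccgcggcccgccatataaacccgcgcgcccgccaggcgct
STARD4: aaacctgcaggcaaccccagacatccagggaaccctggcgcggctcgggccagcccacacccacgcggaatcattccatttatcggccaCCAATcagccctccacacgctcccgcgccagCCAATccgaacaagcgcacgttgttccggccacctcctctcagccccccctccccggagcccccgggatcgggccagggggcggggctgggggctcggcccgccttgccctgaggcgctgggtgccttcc
These windows are chr22:41832855-41833104 on the plus strand, chr7:155297628-155297877 on the plus strand and chr5:111512536-111512785 on the minus strand. In GENCODE release 44 the INSIG1 and STARD4 genes begin further upstream, inside the printed windows.

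With the first transcribed base counted as 0, the SREBF2 promoter held TCACCCCAC from -133 to -125 and an inverted NF-Y box from -106. No other of the 8 genes held the letters TCACNCCAC in its entry, which 1.13% of all 35116 promoters did. INSIG1 held an inverted NF-Y box from -170 and an E-box from -55. STARD4 held NF-Y boxes from -161 and from -130. An NF-Y box was found in 4 of the 9 entries (the fourth was MYLIP) and in 34.6% of all promoters, and an E-box in 2 entries (INSIG1 and SCAP) and in 7.26% of all promoters. The GC box GGGCGG, which is not capitalised, was in 8 of the 9 entries and in 44.95% of all promoters. A match to these letters is a description of the sequence and was not tested as a binding site. Other spellings of these elements were not searched.

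Depth was 39657489, 36517259 and 35515478 reads in WT replicates 1 to 3 and 31532797, 45795509 and 38293289 reads in POLDIP2 KO replicates 1 to 3, recovered from the normalised counts. POLDIP2, the edited gene, had 3919, 4827 and 4798 normalised counts in WT and 1063, 1248 and 1143 in POLDIP2 KO. The lines did not overlap and POLDIP2 fell by 1.97 on the log2 scale (limma adjusted p = 0.00961), leaving the transcript at 0.255 of its WT level. The replicate 1 libraries of both lines stood apart from the other 4. The chi-square statistic of the reads per degree of freedom, which is near 1 for counting noise alone, was 53.4 between the replicate 1 libraries, 46.8 to 79.5 among the other 4, and 101.0 to 170.1 between these sets. The log2 fold changes of the 8 genes and the medians of the gene lists are therefore given also without replicate 1 of both lines, an alternative chosen after seeing the data.

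The lines were compared with limma, a linear model fitted to log2(normalised count + 1) of all tested genes, and DESeq2 and edgeR, which model read counts, were run beside it. None of the 8 genes passed both thresholds (limma adjusted p under 0.05, change over 1.5-fold), which 25 of 14684 genes (0.170%) passed. INSIG1 had the lowest POLDIP2 KO level relative to WT, followed by STARD4, MYLIP and SREBF2, and the other 4 genes had slightly higher means in POLDIP2 KO. At an unadjusted p value under 0.05, INSIG1 and STARD4 were lower (2 of 8 genes, against 3.47% of all tested genes) and 0 were higher (against 3.00%). The lines did not overlap, with POLDIP2 KO lower, for INSIG1, STARD4 and SREBF2 (3 of 8 genes, against 5.44% of tested genes). None had all POLDIP2 KO libraries above all WT libraries, against 5.46% of tested genes. DESeq2 on the recovered reads gave an adjusted p value under 0.05 with lower levels to INSIG1 alone (0.992% of genes with an adjusted value), and to INSIG1 and STARD4 when blocked on replicate number (1.89%). In the opposite direction it gave 0 of the 8 genes either way, against 0.903% and 1.93% of all genes. Their median log2 fold change was -0.09, against -0.00029 for all tested genes, and it ranged from -0.31 (without WT replicate 1) to -0.025 (without WT replicate 2) when each library was left out, and was -0.23 without replicate 1 of both lines. The 8 genes were chosen with earlier results of these data known, so these counts describe them and are not independent evidence. A lower normalised count in bulk RNA can come from fewer cells of a type or from less RNA per cell, which cannot be told apart.

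**Figure D1:**
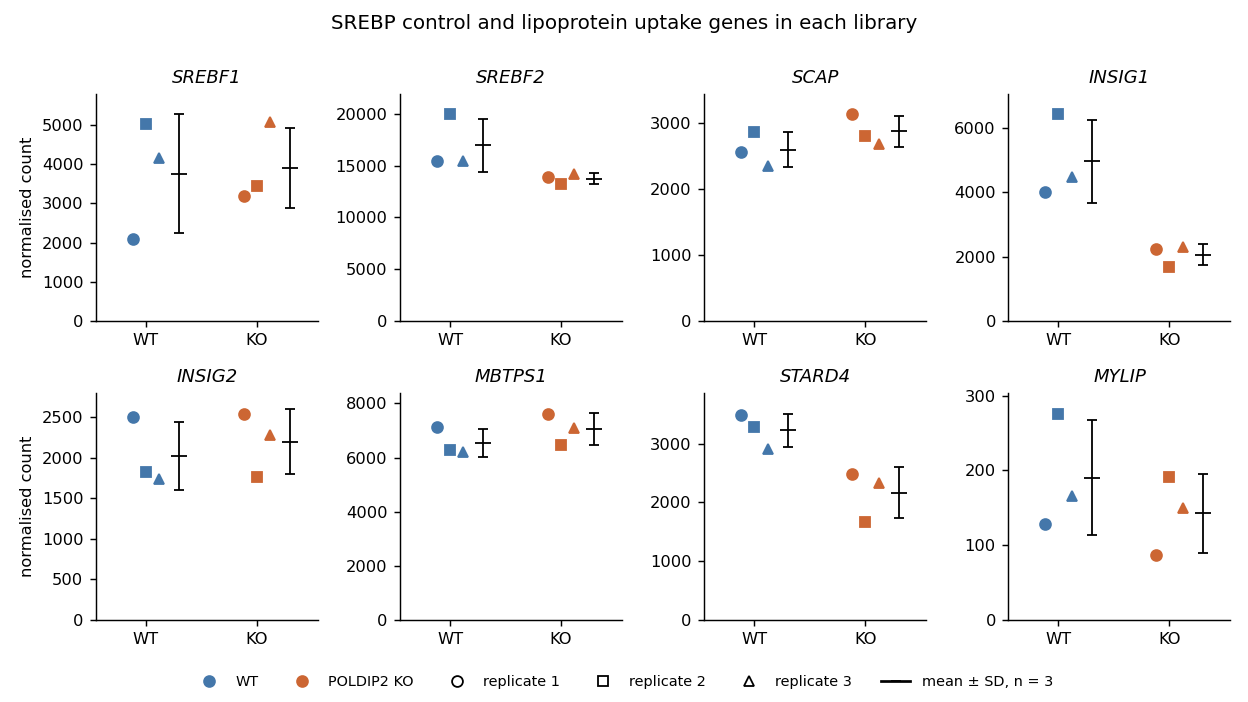
Normalised counts (linear axes from 0) of the 8 genes in each library, WT in blue and POLDIP2 KO in orange, with a marker shape for each replicate number and bars for the mean ± SD (n = 3). The lines separate for INSIG1, STARD4 and SREBF2, and overlap for the other 5 genes.

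INSIG1, the ER protein that retains SCAP, had 4003, 6432 and 4475 normalised counts in WT replicates 1 to 3. In POLDIP2 KO it had 2230.4, 1669.6 and 2283. Every POLDIP2 KO library was below every WT library, and the highest POLDIP2 KO value was below the lowest WT value by more than the whole range of the POLDIP2 KO libraries. The mean was 4969.8 ± 1288 in WT and 2061 ± 339.9 in POLDIP2 KO (SD, n = 3), a ratio of 0.415. The log2 fold change was -1.25 (standard error 0.21, 95% interval -1.75 to -0.76, limma adjusted p = 0.110), which ranked 71 by p value among the tested genes. The exact two-sided permutation p value was 0.1, the smallest that 3 against 3 libraries allow. Read counts of 1813 to 6410 per library stood behind these values, so counting error was small beside the spread of the libraries. DESeq2 gave -1.27 with an adjusted p of 8.94e-06, while edgeR gave -1.27 with an adjusted p of 0.136, so the call depended on the tool. The difference was -0.84, -1.94 and -0.97 between the libraries of numbers 1, 2 and 3, so all 3 pairs went the same way. Without replicate 1 of both lines it was -1.46 (limma adjusted p = 0.269).

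INSIG2, the paralogue of INSIG1 with the same retention role, had 2501, 1826 and 1733 normalised counts in WT. It had 2544, 1758 and 2282 in POLDIP2 KO. The lines overlapped throughout, and replicate 1 was the highest library of each line. On the log2 scale INSIG2 differed by 0.12 (95% interval -0.34 to 0.58, limma adjusted p = 1.00), an interval that lies just inside a change of 1.5-fold. The ratio of INSIG1 to INSIG2 within a library, in normalised counts not divided by length, was 1.60, 3.52 and 2.58 in WT and 0.877, 0.950 and 1.00 in POLDIP2 KO. The ratio was lower in all 3 POLDIP2 KO libraries than in any WT library. The log2 ratio differed by -1.38 between the lines, with no overlap (exact permutation p = 0.1, 0.15 after Benjamini-Hochberg adjustment over the 3 ratios tested).

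SCAP, the sterol-sensing escort of the SREBPs, had 2565, 2873 and 2344 normalised counts in WT and 3133, 2808 and 2684 in POLDIP2 KO. MBTPS1, the site-1 protease, had 7132, 6271 and 6194 in WT and 7626, 6467 and 7078 in POLDIP2 KO. Both genes overlapped between the lines and varied little, with a coefficient of variation of 10.2% in WT for SCAP and 7.98% for MBTPS1. The log2 fold change of SCAP was 0.15 (95% interval -0.13 to 0.43) and that of MBTPS1 was 0.11 (95% interval -0.15 to 0.37), each with a limma adjusted p of 1.00. Both intervals lie inside a change of 1.5-fold in either direction. MBTPS1 was higher in POLDIP2 KO in all 3 pairs, by 0.10, 0.04 and 0.19 on the log2 scale, and SCAP in 2 of 3.

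SREBF2, which encodes SREBP-2, had 15492, 19955 and 15475 normalised counts in WT. It had 13882, 13183 and 14184 in POLDIP2 KO, which put all 3 below WT. The WT libraries spread over a wider range than the gap between the lines, with replicate 2 the high library. The mean was 16974 ± 2582 in WT and 13749.6 ± 514 in POLDIP2 KO (SD, n = 3), a ratio of 0.810. The log2 fold change was -0.29 (standard error 0.13, 95% interval -0.60 to 0.01, limma adjusted p = 0.805), and DESeq2 gave an adjusted p of 0.611. It was lower in all 3 pairs, with differences of -0.16, -0.60 and -0.13.

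SREBF1, which encodes the SREBP-1 isoforms, had 2091, 5044 and 4156 normalised counts in WT and 3181, 3447 and 5079 in POLDIP2 KO. WT replicate 1 was the lowest library of all 6, and the other WT and POLDIP2 KO libraries were interleaved. The coefficient of variation was 40.3% in WT and 26.3% in POLDIP2 KO, against 15.2% and 3.74% for SREBF2. On the log2 scale SREBF1 differed by 0.12 (95% interval -0.69 to 0.92, limma adjusted p = 1.00). The sign turned to -0.26 without WT replicate 1, and to -0.13 without replicate 1 of both lines, so no direction can be given. SREBF1 overlaps RAI1 by 1055 bases on the opposite strand. The kit kept strand, but whether quantification used it is not given in the sources used here. The ratio of SREBF1 to SREBF2 was 0.135, 0.253 and 0.269 in WT and 0.229, 0.262 and 0.358 in POLDIP2 KO. The lines overlapped in this ratio (exact permutation p = 0.5, also after adjustment). The ratio of SREBF2 to INSIG1 was 3.87, 3.10 and 3.46 in WT and 6.22, 7.89 and 6.21 in POLDIP2 KO. Each POLDIP2 KO library thus held more SREBF2 reads for each INSIG1 read than any WT library (difference of 0.96 in the log2 ratio, exact permutation p = 0.1, adjusted 0.15).

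**Figure D2:**
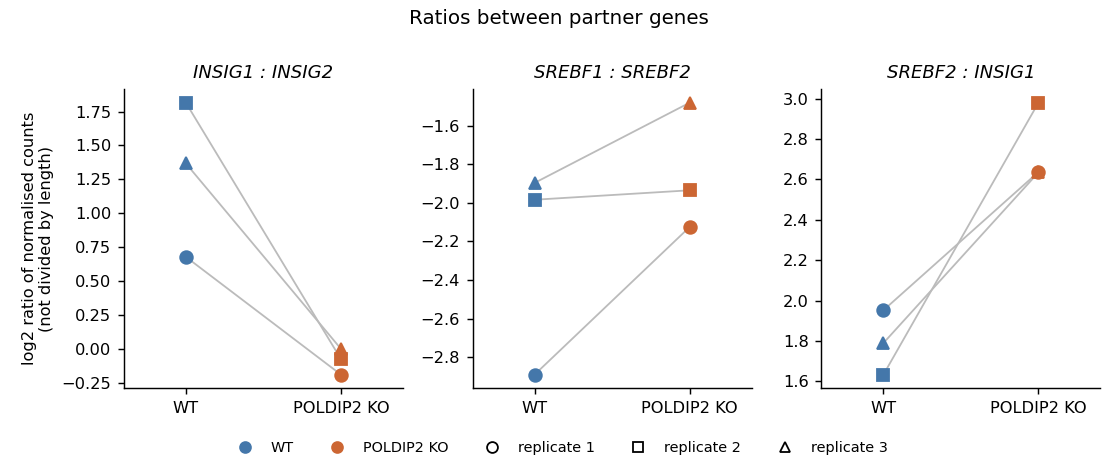
Log2 ratio of 2 genes within each library (vertical axis) in WT and POLDIP2 KO, with grey lines joining libraries of the same replicate number. The ratios are of normalised counts not divided by length, so a value of 0 does not mark equal levels. INSIG1 to INSIG2 lies at 0.68 or more in WT and between -0.19 and 0.00 in POLDIP2 KO, SREBF2 to INSIG1 lies higher in POLDIP2 KO (replicates 1 and 3 coincide), and SREBF1 to SREBF2 overlaps.

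STARD4, the soluble sterol carrier, had 3481, 3281 and 2916 normalised counts in WT. It had 2489.9, 1669.6 and 2324.5 in POLDIP2 KO. All POLDIP2 KO libraries lay below all WT libraries, with replicate 2 of POLDIP2 KO the lowest, where STARD4 and INSIG1 had the same read count of 2051. The mean was 3226 ± 286 in WT and 2161 ± 434 in POLDIP2 KO (SD, n = 3), a ratio of 0.670. The log2 fold change was -0.59 (standard error 0.17, 95% interval -0.99 to -0.19, limma adjusted p = 0.415). DESeq2 gave an adjusted p of 0.102, and 0.0134 when blocked on replicate number. The pairs differed by -0.48, -0.97 and -0.33, all in the same direction, and without replicate 1 of both lines the value was -0.65 (limma adjusted p = 0.546). An antisense RNA overlaps STARD4 by 2195 bases and was not analysed here.

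MYLIP, the ligase for lipoprotein receptors, had 128, 276 and 166 normalised counts in WT and 86.1, 191 and 149.9 in POLDIP2 KO. It had the fewest reads of the 8 genes, with 70 to 275 reads per library. The lines overlapped, and replicate 2 was the highest and replicate 1 the lowest library in each. Within each replicate number POLDIP2 KO was lower, with differences of -0.57, -0.53 and -0.15. The log2 fold change was -0.41 (standard error 0.39, 95% interval -1.34 to 0.51, limma adjusted p = 1.00). MYLIP, INSIG1, STARD4 and SREBF2 were lower in POLDIP2 KO in all 3 pairs (4 of 8 genes, against 15.7% of tested genes).

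**Figure D3:**
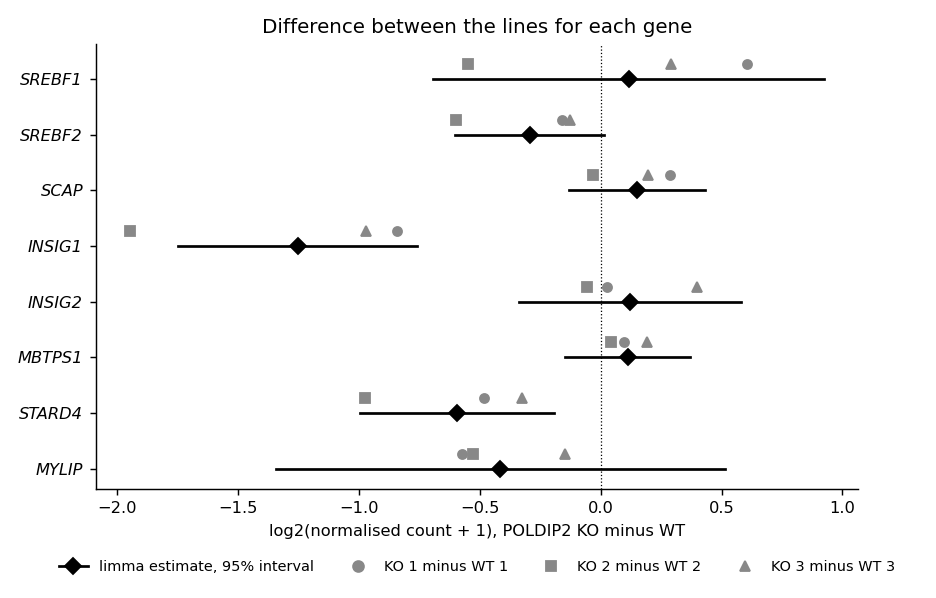
Difference between POLDIP2 KO and WT in log2(normalised count + 1) for each gene (horizontal axis), as the limma estimate with its 95% interval (black) and as the differences between libraries of the same replicate number (grey). Intervals exclude 0 for INSIG1 and STARD4 before adjustment, and the widest intervals are those of MYLIP and SREBF1.

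Libraries deviated from the mean of their own line in ways that some of the genes shared. In WT replicate 2, MYLIP, SREBF1, INSIG1 and SREBF2 stood 0.61, 0.52, 0.40 and 0.24 above their WT means on the log2 scale. In POLDIP2 KO replicate 2, STARD4, INSIG2 and INSIG1 stood at -0.35, -0.30 and -0.29 and MYLIP at 0.50. SREBF1 and MYLIP had the widest spread within a line. INSIG2 was the gene of the 8 for which the replicate 1 libraries were above both line means by the most, at 0.33 and 0.23.

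Levels of different genes were compared as normalised counts per kilobase of the canonical GENCODE transcript. In WT, SREBF2 was highest at 3241 ± 493, then INSIG1 at 1709 ± 443, MBTPS1 at 1492 ± 119, SREBF1 at 768 ± 309, STARD4 at 697 ± 61.9, SCAP at 609.7 ± 62.4, INSIG2 at 567 ± 118 and MYLIP at 61.9 ± 24.9 (SD, n = 3). INSIG1 and MBTPS1 overlapped, as did each neighbouring pair from SREBF1 to INSIG2, while SREBF2 and MYLIP stood clear of the rest. In POLDIP2 KO, SREBF2 was highest at 2625 ± 98.1, then MBTPS1 at 1612 ± 132, SREBF1 at 796 ± 209.7, INSIG1 at 709 ± 117, SCAP at 676 ± 54.6, INSIG2 at 616 ± 112, STARD4 at 467 ± 93.7 and MYLIP at 46.4 ± 17.3. INSIG1 moved from rank 2 to rank 4 and STARD4 from rank 5 to rank 7, and the neighbours from SREBF1 to STARD4 overlapped. With merged exons as the length, SREBF2 stayed first and MYLIP last in both lines, and part of the order between them changed. INSIG1 was then at rank 2 in WT and rank 3 in POLDIP2 KO, and STARD4 at rank 4 in WT and rank 7 in POLDIP2 KO.

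**Figure D4:**
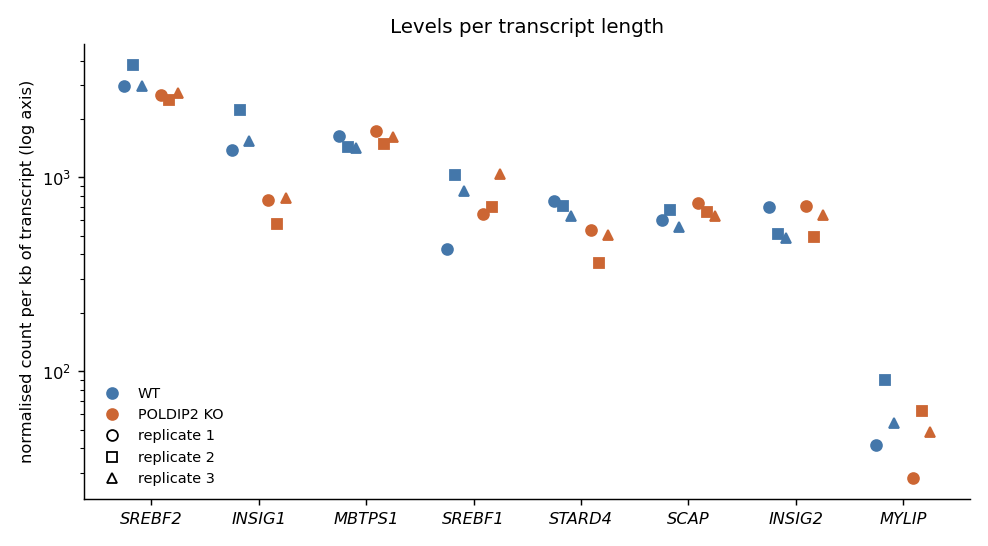
Normalised counts per kilobase of canonical transcript (log axis) of the 8 genes in each library, ordered by the WT mean, WT in blue and POLDIP2 KO in orange, with a marker shape for each replicate number. SREBF2 is highest and MYLIP lowest in all 6 libraries, and INSIG1 lies above SREBF1 in all 3 WT libraries but overlaps it in POLDIP2 KO.

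In GRCh38 the genes lie on 8 chromosomes, SREBF1 at chr17:17810399-17837002, SREBF2 at chr22:41833105-41907306, SCAP at chr3:47413681-47477126, INSIG1 at chr7:155297776-155310235, INSIG2 at chr2:118088452-118110997, MBTPS1 at chr16:84053761-84116942, MYLIP at chr6:16129086-16148248 and STARD4 at chr5:111496033-111512590 (GENCODE release 44). The values are sums over all transcripts of a gene, so isoforms of SREBF1 were not separated.

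Among the 14684 tested genes, those with the profile over the 6 libraries most like that of INSIG1 were LIPG, TMEM86A, CYP51A1, DHCR7 and IDI1, at root mean square distances of 0.14, 0.15, 0.17, 0.18 and 0.19 between log2 values centred on each gene's mean. LIPG, which encodes endothelial lipase, had 1059.9, 1779.96 and 953 normalised counts in WT and 629.9, 409 and 527 in POLDIP2 KO. STARD4 was the closest of the other 7 genes to INSIG1, at 0.40 and rank 134. The profiles most like that of STARD4 were those of SQLE, NSDHL, a gene with no symbol (ENSG00000275748), MMAB and PTGES3L, at 0.08 to 0.11. CYP51A1, DHCR7, IDI1, SQLE and NSDHL are enzymes of cholesterol synthesis. SREBF2 was the closest of the other 7 genes to STARD4, at 0.25.

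The enzymes of sterol synthesis, whose genes SREBP-2 is known to activate, had negative log2 fold changes for all 20 genes listed, from -1.51 to -0.03 with a median of -0.78. None passed the limma thresholds, 19 had an unadjusted p value under 0.05 (3.47% of all tested genes did and were lower), and 17 were lower without overlap between the lines (5.44% of all tested genes). DESeq2 gave 12 of them an adjusted p value under 0.05, and 17 when blocked on replicate number, against 0.992% and 1.89% of all tested genes lower by the same rule. IDI1, the isopentenyl diphosphate isomerase, had 5449.97, 6070.3 and 4539.9 normalised counts in WT and 2765.5, 2141 and 2597 in POLDIP2 KO (log2 fold change -1.10, limma adjusted p = 0.0706). All POLDIP2 KO libraries were below all WT libraries. CYP51A1, the lanosterol demethylase, was at -0.98 (limma adjusted p = 0.108) and ACAT2, a thiolase of acetyl-CoA, at -0.91 (0.122). The median without replicate 1 of both lines was -0.99, so it was not smaller without these libraries. The list was written with earlier results of these libraries known. In the RefSeq entries an NF-Y box was found in 15 of these 20 promoters (34.6% of all promoters) and the letters TCACNCCAC in 0 (1.13%). Only this spelling of the sterol regulatory element was searched, so the absence of an element cannot be read from it.

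Genes of fatty acid synthesis that SREBP-1 is known to activate were lower for 10 of 11 genes, with a median of -0.43. Of these, 6 had an unadjusted p value under 0.05 (3.47% of all tested genes), 4 did not overlap (5.44%), and 0 passed limma. DESeq2 gave 1 of the 11 an adjusted p value under 0.05 (0.992% of all tested genes), and 5 when blocked on replicate number (1.89%). Without replicate 1 of both lines 10 of the 11 were lower at an unadjusted p value under 0.05 and 10 were lower without overlap, against 4.01% and 17.7% of all tested genes. FASN, the fatty acid synthase, had 18677, 31328 and 20178 normalised counts in WT and 12446, 15214 and 13523 in POLDIP2 KO (log2 fold change -0.73, limma adjusted p = 0.406, DESeq2 0.0336). ACLY, the ATP citrate lyase, was at -0.37, ELOVL5, a fatty acid elongase, at -0.28 and ACACA, an acetyl-CoA carboxylase, at -0.32, each without overlap.

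The wider set for SREBP processing and turnover held 18 genes, of which 8 were lower and 10 higher, with a median of 0.02. Only RNF139, an ER ubiquitin ligase, had an unadjusted p value under 0.05 in this set, where it was higher (1 of 18 genes, against 3.00% of all tested genes). RNF139 had 1291, 1417 and 1292 normalised counts in WT and 1940.04, 2052 and 2134 in POLDIP2 KO. All POLDIP2 KO libraries lay above all WT libraries (log2 fold change 0.61, limma adjusted p = 0.108, DESeq2 4.19e-05). NFYB, a subunit of NF-Y, was at 0.23, UBE2J2, an ER ubiquitin-conjugating enzyme, at -0.16 and SPRING1, a cofactor of the site-1 protease, at -0.27, and all 3 had a limma adjusted p of 0.933 or more. UBE2J2 and ERLIN2, an ER membrane protein, were lower without overlap (2 of 18 genes, against 5.44% of all tested genes), ERLIN2 at -0.14. Without replicate 1 of both lines, 6 of the 18 genes were lower without overlap, against 17.7% of all tested genes. The 12 genes of the COPII coat, which carries SCAP and SREBPs out of the ER, had a median of 0.04. Of these 12, 0 had an unadjusted p value under 0.05, against 3.47% of all tested genes lower and 3.00% higher. SEC23B was at -0.21, SEC23A at 0.16, SEC16A at 0.20 and SAR1A at 0.13.

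Of 17 genes of lipoprotein uptake, 6 were lower and 11 higher, with a median of 0.03, and 0 had an unadjusted p value under 0.05, against 3.47% of all tested genes lower and 3.00% higher. Of these 17, 2 were higher without overlap (LRP1 and SNX17, against 5.46% of all tested genes) and 0 lower. LRP1, a large endocytic receptor for lipoprotein remnants, had 49034, 44031.5 and 38513 normalised counts in WT and 67726.5, 53015 and 50819 in POLDIP2 KO. It was higher in POLDIP2 KO without overlap (log2 fold change 0.38, limma adjusted p = 0.789, and 0.139 when blocked on replicate number). DESeq2 gave LRP1 an adjusted p of 0.456, and 0.00126 when blocked on replicate number. SNX17, a sorting nexin that recycles such receptors, was at 0.19 without overlap, and USP2, a deubiquitinase, was at -0.42. VLDLR, the very low density lipoprotein receptor, was listed at 0 in WT replicates 2 and 3, had 105 in WT replicate 1, and had 137, 43.96 and 50.6 in POLDIP2 KO. The 10 tested genes of the liver X receptor list, which includes MYLIP and SREBF1, had a median of 0.03, with RNF145 at 0.27, NR1H3 at 0.20 and RXRA at -0.07. RXRB was listed at 0 in all 6 libraries. The 13 tested genes of the sterol transfer list had a median of -0.09, with GRAMD1C at 1.06, GRAMD1A at -0.27, GRAMD1B at -0.22 and STARD3NL at -0.10. Not all proteins of that list carry sterols or are related to STARD4. In both lists 0 genes had an unadjusted p value under 0.05, against the same 3.47% and 3.00% of all tested genes.

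**Figure D5:**
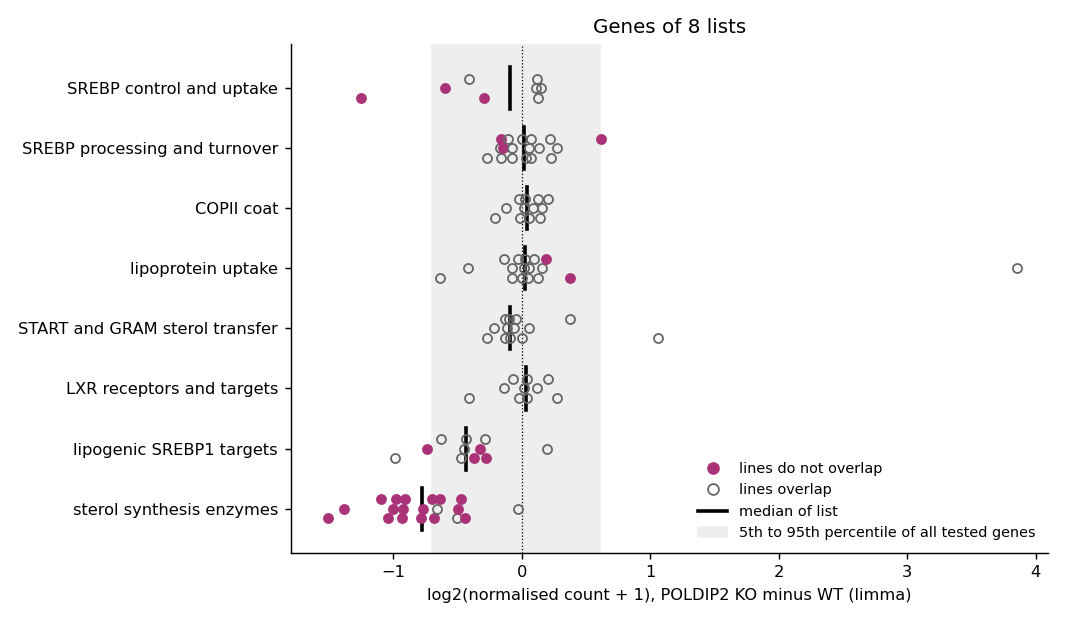
Difference between POLDIP2 KO and WT in log2(normalised count + 1) for the tested genes of 8 lists (horizontal axis), filled where the lines do not overlap, with the median of each list as a bar and the 5th to 95th percentile of all tested genes (-0.70 to 0.61) shaded. The sterol synthesis enzymes have the lowest median, -0.78, followed by the lipogenic genes at -0.43, and the point far to the right is VLDLR, with 0 reads in 2 WT libraries.

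Markers of cell types were read beside these values. Of 13 RPE markers 11 were tested, and their sums of 82748, 76629.7 and 72201 normalised counts in WT and 89771, 67742 and 77171 in POLDIP2 KO overlapped. Most of each sum came from the keratins KRT8 and KRT18. Of the 11 tested, 7 had negative and 4 positive log2 fold changes, with a median of -0.21, and 2 were lower without overlap, against 5.44% of all tested genes (4, against 17.7%, without replicate 1 of both lines). These were LRAT, the lecithin retinol acyltransferase, with 105.8, 75.3 and 29.2 normalised counts in WT and 22.1, 24.4 and 28.8 in POLDIP2 KO (log2 fold change -1.27, limma adjusted p = 0.731), and SERPINF1, which encodes pigment epithelium-derived factor (-0.77, 0.822). BEST1 went the other way, with 61.4, 561.9 and 376.9 normalised counts in WT and 238.7, 419.2 and 669.3 in POLDIP2 KO (log2 fold change 0.78). KRT8 was the most abundant, at 34222 to 48481, and the pigment cell regulator MITF had 2955 to 4503. Several RPE markers were near or at 0. RPE65 was at 0 in every library, DCT had at most 4 reads in any library, TYRP1 had 1 to 25 reads and RLBP1 had 16 to 68 reads. The 6 fibroblast and mesenchymal markers summed to 9692, 4291 and 4586 in WT and 17393, 4052 and 6645 in POLDIP2 KO, with PDGFRB highest by the mean of each line. All 6 were tested, and 5 had positive and 1 (THY1, at -0.69) negative log2 fold changes. Of the 6, 0 had an unadjusted p value under 0.05, against 3.47% of all tested genes lower and 3.00% higher. The median of the 6 was 0.81 and was -0.018 without replicate 1 of both lines, and 4 of the 6 were lower in POLDIP2 KO in the pair of replicate 2. Replicate 1 was the highest library of each line, and COL1A2, a collagen chain, had 614 normalised counts in POLDIP2 KO replicate 1 and 9.45 or fewer in the other 5. COL1A1, another collagen chain, had 2147, 320.1 and 677 normalised counts in WT and 6956, 759.5 and 1953 in POLDIP2 KO. It was higher in POLDIP2 KO in all 3 pairs of the same number (log2 fold change 1.49, limma adjusted p = 0.981, and 0.0436 when blocked on replicate number). DESeq2 gave COL1A1 an adjusted p of 0.9998, and 1.8e-21 when blocked on replicate number, so the call depended on the tool and the block. The 6 leukocyte markers summed to 77.5, 84.3 and 74.1 in WT and 39.4, 50.5 and 51.6 in POLDIP2 KO, lower without overlap, with CD3E at 0 in all libraries. The 3 that were tested, CSF1R, ITGAM and LYZ, were at -1.37, -0.86 and -0.36. PTPRC, the common leukocyte antigen, went the other way, with 0 reads in each WT library and 1, 4 and 7 in POLDIP2 KO, and the mean of CD14 was 1.70 normalised counts for WT against 4.39 for POLDIP2 KO, both too low to be tested. The 5 endothelial markers summed to 35.5 to 199 with CDH5 at 1 read or fewer, and of the 3 hepatocyte markers ALB and APOA1 had 2 reads or fewer. The other, SERPINA1, a protease inhibitor, had 171, 187 and 111 normalised counts in WT and 191, 175 and 181 in POLDIP2 KO (log2 fold change 0.26). The part of these markers in the results was not tested.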

How the data were processed

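Total RNA of each library was sequenced after a stranded poly(A) mRNA kit. The signal in each column is a normalised count that the authors made before it was deposited: the submitters' processing notes name Salmon 1.8, DESeq2 1.34.0 and GRCh38, and the annotation release is not given in the sources used here. No raw counts were used. The number of value columns not used was 0. Symbols came from the reference gene table for 29046 genes, and 16563 genes were at 0 in every library.

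The smallest value above 0 in a column was taken as the worth of 1 read, and dividing by it gave whole numbers throughout (tolerance 0.001). This says little for WT replicate 2 and POLDIP2 KO replicate 3, where a read is worth close to 1. No 2 libraries agreed within sampling noise.

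POLDIP2 KO was compared with WT in limma 3.58.1 (R 4.3.3) after adding 1 to the normalised counts and taking log2. Genes needed a mean of at least 10. The fit used lmFit and eBayes with trend, with 3.02 prior degrees of freedom. P values were adjusted over 14684 genes by Benjamini and Hochberg, and genes were called under 0.05 and over 1.5-fold. The fold change is on that scale, and the added 1 makes it smaller for low genes. As a difference of mean logs it can also exceed the ratio of means. VLDLR, at 0 in WT replicates 2 and 3, had a log2 fold change of 3.85 and a ratio of means of 2.20. Alternatives were other pseudocounts, filters and normalisations, limma without trend or with robust estimation, edgeR 4.0.16 and DESeq2 1.42.0 on the recovered reads, the replicate number as a block, and leaving out each library. The scripts were tested on simulated data. Single values were compared with exact two-sided permutation tests, and figures were drawn with Python 3.11.15 and matplotlib 3.10.9.

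The labels number the replicates in both lines. Deviations from the line means correlated across genes at 0.315, 0.137 and 0.129 between libraries of the same number, all above 0.1, so the numbers were taken as pairs. WT replicate 3 and POLDIP2 KO replicate 2 also correlated at 0.147, more than the same-number libraries of replicates 2 and 3. The pairing of replicates 2 and 3 is therefore not established by these correlations.

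The genes, the lists and the tests were chosen with earlier results of these data known. Named genes are the 8 genes and POLDIP2, at most the 4 genes with the smallest limma p value in each list (none passed the thresholds, and 1 gene so chosen is not reported here), and the 5 genes with the profile closest to INSIG1 and to STARD4. RXRB, RAI1, ERLIN2 and the cell type markers were named after their values were seen. Promoters came from RefSeq (GRCh38.p14) and gene positions from GENCODE release 44. Antisense RNAs at SREBF2 and STARD4 were not analysed here.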

Additional observations from a re-analysis of the deposited data

How the results depend on the processing

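With 3 libraries per line and a limma prior of 3.02 degrees of freedom, the limma count of called genes was small and moved with the settings: 25 genes in the comparison as reported, 16 at a mean of at least 50, 0 to 5 when each library was left out (with all libraries of replicate 1 left out, 4), 5 with edgeR and the replicate block, 248 with DESeq2 and 392 with DESeq2 and the replicate block. The cause of the gap between limma and DESeq2 was not tested. DESeq2 called 1 of the 8 genes, INSIG1 (log2 fold change -1.27), and 2 with the replicate block, INSIG1 (-1.25) and STARD4 (-0.59), and it called 12 and 15 sterol synthesis enzymes past both thresholds. The replicate numbers were taken as pairs, which the labels do not state. In limma the replicate block left INSIG1 at -1.25 (adjusted p = 0.128) and changed no call among the 8 genes. Every other setting left the 8 genes uncalled. Over the libraries left out in turn, INSIG1 ranged from -1.39 to -1.05, STARD4 from -0.71 to -0.42, SREBF2 from -0.36 to -0.17, MYLIP from -0.66 to -0.09, INSIG2 from 0.0074 to 0.29, SCAP from 0.080 to 0.23 and MBTPS1 from 0.054 to 0.18, with adjusted p values from 0.173 upwards. SREBF1 ranged from -0.26 to 0.37, turning negative without POLDIP2 KO replicate 3 (-0.09), without WT replicate 1 (-0.26) and without replicate 1 of both lines (-0.13). The medians of SREBP processing and turnover (-0.071 to 0.056, and -0.013 without replicate 1 of both lines) and of the liver X receptor list (-0.086 to 0.16, and -0.010) had no stable sign. The median of lipoprotein uptake ranged from 0.0092 to 0.073 (0.037 without replicate 1 of both lines), that of the COPII coat from 0.015 to 0.079 (0.0042), that of sterol transfer from -0.15 to -0.037 (-0.023), that of the lipogenic genes from -0.52 to -0.32 (-0.49) and that of the sterol synthesis enzymes from -0.94 to -0.67 (-0.99). Without replicate 1 of both lines INSIG1 was at -1.46, STARD4 at -0.65, SREBF2 at -0.36, MYLIP at -0.34, INSIG2 at 0.17, MBTPS1 at 0.12 and SCAP at 0.081. With each library left out, the difference between the lines in the log2 ratio of INSIG1 to INSIG2 ranged from -1.68 to -1.11. The same difference for SREBF2 to INSIG1 ranged from 0.84 to 1.04. For SREBF1 to SREBF2 it ranged from 0.093 (without WT replicate 1) to 0.59 (without WT replicate 3). Leaving out libraries for the ratios, and leaving out replicate 1 of both lines, were chosen after seeing the data. MYLIP had the fewest reads of the 8 genes, with 70 in POLDIP2 KO replicate 1, and whether depth widened its spread was not tested.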
